A study of Mus musculus with 20 samples.

Results

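The genes described here are 10 that mark T cells and cytotoxic lymphocytes: Cd3e, Cd3d, Cd3g, Cd4, Cd8a, Cd8b1, Cd2, Nkg7, Gzma and Gzmb. They were chosen by name from the 46078 genes of the count tables, and each symbol matched 1 Ensembl identifier. Their RNA was measured by stranded mRNA sequencing in brain tissue of male C57BL/6J wild-type mice aged 18 months, 7 weeks after DH stroke, in which the distal middle cerebral artery is occluded and the mouse is then kept in hypoxia. Starting 1 week after stroke, mice were injected subcutaneously 3 times per week for 6 weeks with vehicle (sterile PBS) or with 4 g/kg HPBCD, a ring of sugars with a cavity that holds cholesterol. The tissue was either peri-infarct or what the authors dissected as the corresponding region of the other hemisphere, here called contralateral. This gives 4 groups of 5 libraries: vehicle contralateral, vehicle peri-infarct, HPBCD contralateral and HPBCD peri-infarct. All mice had a stroke, so contralateral tissue comes from an injured brain, and the mice were perfused with saline before the tissue was taken. The words HPBCD-treated and vehicle-treated follow the sample labels throughout, and no gene in the tables checks which mice received HPBCD.

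A T cell recognises antigen through its T cell receptor, and the receptor reports to the inside of the cell through the CD3 chains, of which Cd3e, Cd3d and Cd3g encode 3. CD4 and CD8 are co-receptors: CD4 binds MHC class II on antigen-presenting cells and marks helper T cells, whereas CD8, a dimer of the products of Cd8a and Cd8b1, binds MHC class I and marks cytotoxic T cells. CD2 is an adhesion receptor of T and NK cells, NKG7 is a membrane protein of their cytotoxic granules, and granzymes A and B, from Gzma and Gzmb, are the proteases that those granules deliver into target cells. T cells are scarce in the healthy brain and enter injured tissue from the blood. Some members are not restricted to lymphocytes, since macrophages and dendritic cells can carry CD4 and a class of dendritic cells carries CD8α.

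Library depth was 14445021 to 22171627 gene counts (median 19008532), at which 3 counts correspond to 0.135 to 0.208 CPM, the count scaled to library size. Over all 20 libraries together Cd3e had 281 counts, Cd8a 270, Cd8b1 195, Cd3g 179, Cd2 169, Nkg7 116, Cd3d 68, Gzmb 37 and Gzma 6, and Cd4 stood apart with 4756. Raw counts are therefore given for every library, in the order of replicates 1 to 5, and intervals and floors on them cover counting error only.

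The CD3 genes lie together on chromosome 9 (GRCm38), with Cd3g at chr9:44969572-44980431 on the minus strand, Cd3d at chr9:44981786-44987339 on the plus strand and Cd3e at chr9:44998740-45009627 on the minus strand. Cd3g and Cd3d point away from each other across a gap of 1354 bases, and 11400 bases separate Cd3d from Cd3e. Because these genes were measured together in the same libraries, the 250 bases before each RefSeq start (GRCm38.p6) are shown 5′ to 3′ on the strand of the gene, with capitals at matches to the letters searched.
Cd3e: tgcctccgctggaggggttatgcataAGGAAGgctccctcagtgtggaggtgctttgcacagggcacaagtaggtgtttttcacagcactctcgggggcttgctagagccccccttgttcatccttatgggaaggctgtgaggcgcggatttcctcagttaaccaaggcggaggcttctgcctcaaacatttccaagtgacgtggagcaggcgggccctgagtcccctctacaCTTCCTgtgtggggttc
Cd3d: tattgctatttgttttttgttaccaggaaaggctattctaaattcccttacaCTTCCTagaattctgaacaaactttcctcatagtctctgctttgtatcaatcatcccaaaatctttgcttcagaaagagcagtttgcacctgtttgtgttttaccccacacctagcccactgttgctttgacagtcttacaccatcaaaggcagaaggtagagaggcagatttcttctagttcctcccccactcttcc
Cd3g: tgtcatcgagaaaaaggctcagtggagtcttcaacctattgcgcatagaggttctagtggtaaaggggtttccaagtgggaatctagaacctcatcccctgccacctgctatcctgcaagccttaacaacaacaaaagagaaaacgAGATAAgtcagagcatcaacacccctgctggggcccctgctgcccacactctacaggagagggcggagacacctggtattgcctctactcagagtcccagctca

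These windows are chr9:45009612-45009861 for Cd3e, chr9:44981536-44981785 for Cd3d and chr9:44980432-44980681 for Cd3g. Core letters of sites of 3 families of lymphocyte transcription factors were searched on both strands, AGGAAG for ETS factors, AGATAA for GATA factors and TGTGGT for RUNX factors, as was TATAAA of the TATA box. The ETS letters occurred 224 and 17 bases before the start of Cd3e and 198 bases before that of Cd3d, and the GATA letters 104 bases before that of Cd3g. TATAAA and the RUNX letters had no match in these 3 windows. Among 32851 windows of this length, 29.5% held the ETS letters, 9.99% the GATA letters, 14.0% the RUNX letters and 12.4% TATAAA. RefSeq windows were found for 7 of the 10 members. Of those, 3 held the RUNX letters (Nkg7, Gzma and Gzmb), 3 the ETS letters (Cd3e, Cd3d and Nkg7) and 1 the GATA letters. A match is a description of the letters and not a site.

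The CD3 genes were present in every peri-infarct library and close to 0 contralaterally. Cd3e, which encodes the CD3ε chain, had 8, 2, 48, 41 and 10 counts in vehicle peri-infarct and 5, 3, 2, 4 and 0 in vehicle contralateral libraries. In HPBCD peri-infarct libraries it had 23, 36, 27, 38 and 28 counts, and in HPBCD contralateral libraries 0, 0, 2, 3 and 1. Replicates 3 and 4 held most of the counts of the vehicle peri-infarct group, replicate 2 lay within the contralateral range, and the HPBCD groups did not overlap. Cd3d, which encodes CD3δ, had 2, 2, 10, 12 and 4 counts in vehicle peri-infarct, 9, 6, 7, 8 and 8 in HPBCD peri-infarct and 0 in all 10 contralateral libraries. Cd3g, which encodes CD3γ, had 4, 2, 29, 31 and 4 counts in vehicle peri-infarct, 1, 3, 2, 2 and 0 in vehicle contralateral and 21, 24, 24, 22 and 10 in HPBCD peri-infarct libraries, and 0 in all 5 HPBCD contralateral libraries. The 3 genes added together gave 2.15 ± 2.12 CPM in vehicle peri-infarct against 0.244 ± 0.142 in vehicle contralateral, and 2.87 ± 0.684 in HPBCD peri-infarct against 0.0845 ± 0.0982 in HPBCD contralateral libraries (SD, n = 5 each). In bulk tissue, fewer cells of a type and less RNA per cell cannot be told apart. Exons of Cd3e share 135 bases with an antisense gene, Gm48719, so reads of the 2 could be exchanged if strand was not used in counting.

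The CD8 chains were likewise higher peri-infarct in raw counts. Cd8a, at chr6:71373427-71379173 on the plus strand, encodes CD8α and had 12, 3, 30, 49 and 18 counts in vehicle peri-infarct and 5, 1, 2, 1 and 0 in vehicle contralateral libraries. It had 30, 32, 35, 25 and 21 counts in HPBCD peri-infarct and 5, 0, 1, 0 and 0 in HPBCD contralateral libraries. Cd8b1, at chr6:71322788-71337494 on the same strand, 35932 bases before Cd8a, encodes CD8β, which conventional cytotoxic T cells carry. Its counts were 15, 7, 39, 33 and 16 in vehicle peri-infarct and 0, 0, 0, 0 and 3 in vehicle contralateral libraries, and 20, 20, 17, 13 and 10 in HPBCD peri-infarct and 0, 0, 1, 1 and 0 in HPBCD contralateral libraries. Every peri-infarct library of Cd8b1 lay above every contralateral library in both treatments. The sum of the CD8 chains was 2.26 ± 1.54 CPM in vehicle peri-infarct against 0.13 ± 0.0906 in vehicle contralateral, and 2.17 ± 0.453 in HPBCD peri-infarct against 0.0927 ± 0.105 in HPBCD contralateral libraries (SD, n = 5 each).

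Cd2, at chr3:101275899-101287939 on the minus strand, had 5, 3, 15, 35 and 12 counts in vehicle peri-infarct, 4, 3, 1, 2 and 0 in vehicle contralateral, 16, 13, 20, 22 and 13 in HPBCD peri-infarct and 0, 1, 1, 0 and 3 in HPBCD contralateral libraries. Nkg7, at chr7:43437073-43438249 on the plus strand, had 2, 1, 18, 27 and 8 counts in vehicle peri-infarct, 0, 2, 1, 4 and 2 in vehicle contralateral, 14, 10, 5, 15 and 5 in HPBCD peri-infarct and 1, 0, 1, 0 and 0 in HPBCD contralateral libraries. For both genes the HPBCD groups did not overlap and the vehicle groups did. Gzmb, at chr14:56258838-56262260 on the minus strand, had 0, 0, 5, 5 and 1 counts in vehicle peri-infarct and 3, 5, 6, 9 and 0 in HPBCD peri-infarct libraries, against 0, 2, 0, 0 and 0 in vehicle contralateral and 0, 0, 1, 0 and 0 in HPBCD contralateral libraries. Gzma, at chr13:113093825-113100981 on the minus strand, had 6 counts in all: 2 over the vehicle peri-infarct, 3 in 1 vehicle contralateral and 1 in 1 HPBCD peri-infarct library. A difference in Gzma between regions or treatments was not detectable at this depth.

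**Figure D1:**
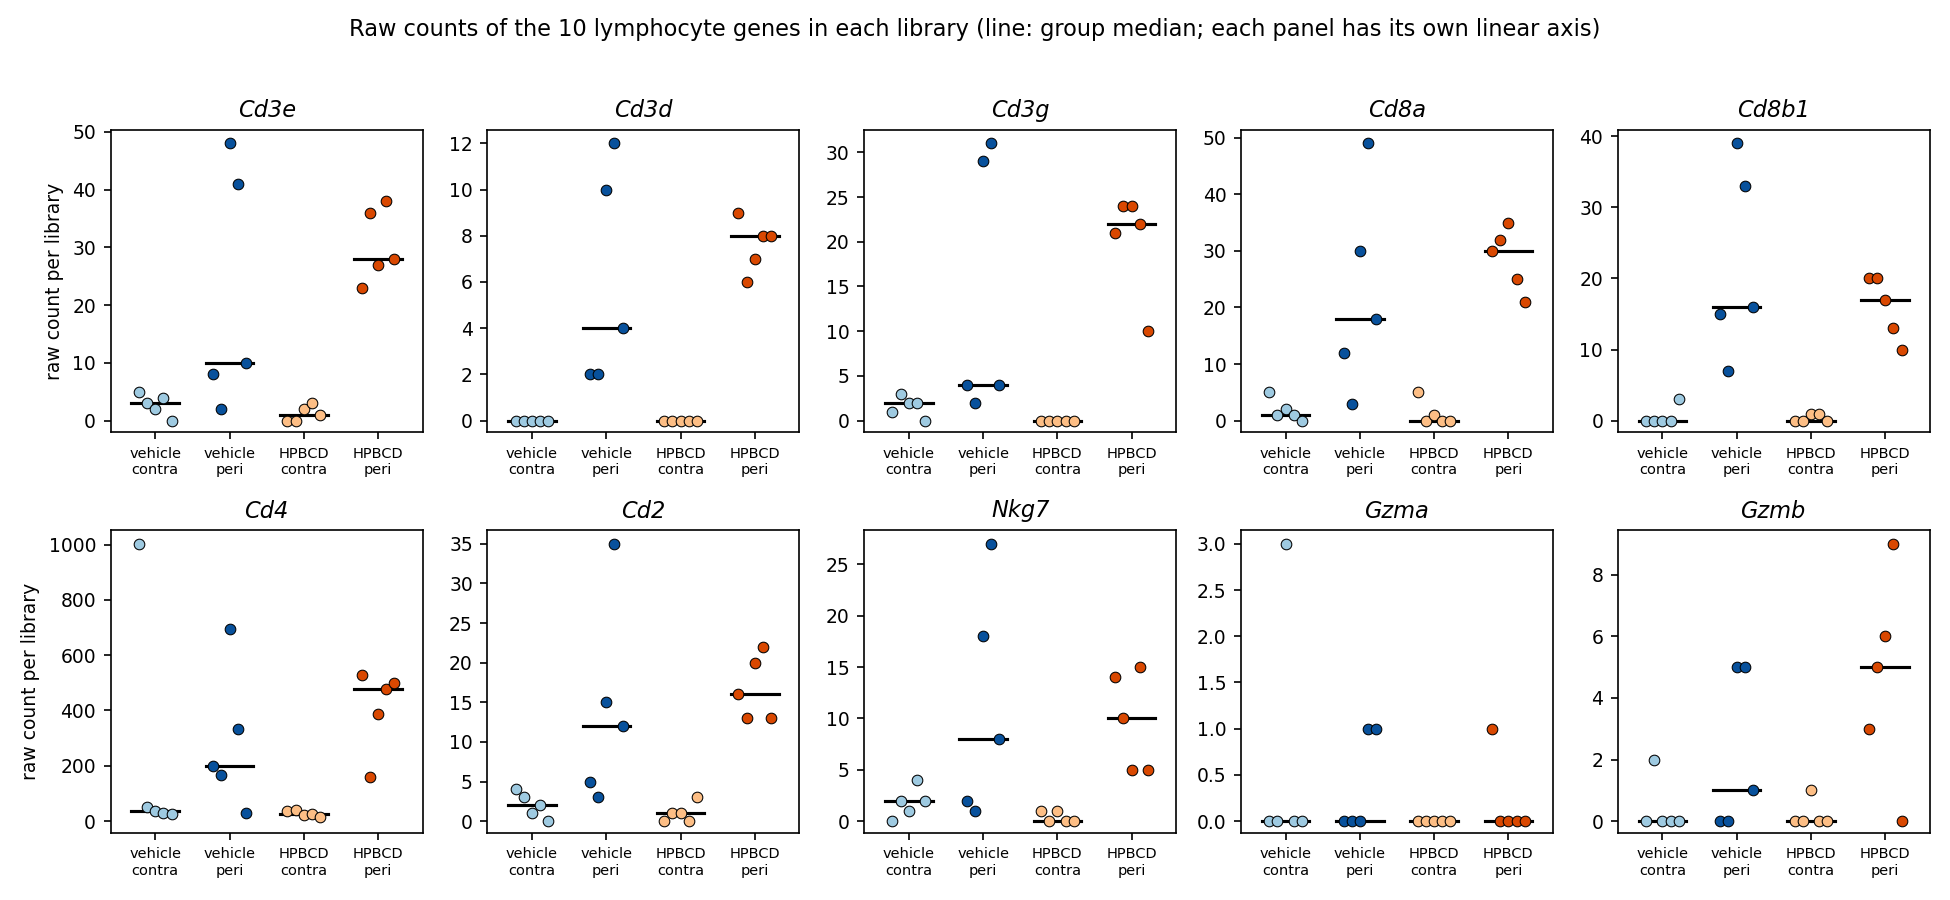
Raw counts per library (y axis, linear and different in each panel) of the 10 genes in the 4 groups (x axis), with 1 point per library in order of replicate and a line at the group median of 5 libraries. Counts of Cd3d are 0 in all 10 contralateral libraries, Cd4 has a single contralateral library at 1003 counts, and no library has more than 3 counts of Gzma.

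The comparison of peri-infarct with contralateral tissue holds the stroke together with any difference in the piece of brain cut, and these cannot be told apart. In HPBCD-treated mice, for instance, all 9 striatal genes given below beside Cd4 were called higher peri-infarct. In vehicle-treated mice 6 of the 10 members were called (adjusted p under 0.05) when low genes were kept in the test. Of the 28051 genes with at least 1 count, edgeR called 9.98% in this fit, 5.47% as higher. Cd8b1 rose by 4.85 ± 0.81 on the log2 scale (SE, adjusted p = 0.00162), Cd8a by 3.41 ± 0.74 (adjusted p = 0.00839), Cd3g by 2.92 ± 0.85 (adjusted p = 0.0395), Cd3e by 2.80 ± 0.79 (adjusted p = 0.0334) and Cd2 by 2.58 ± 0.72 (adjusted p = 0.0322). Cd3d was also called (adjusted p = 0.0118), and with no contralateral count its peri-infarct level was at least 9.31-fold higher, taking 3 counts over the group as the floor. Nkg7, at 2.43 ± 0.83 (adjusted p = 0.0787, but 0.0395 with DESeq2 and 0.0271 with all 4 groups in 1 fit), Gzmb, at 2.05 ± 1.23 (adjusted p = 0.349), Gzma, at -0.62 ± 1.29 (adjusted p = 0.799), and Cd4, at 0.23 ± 0.92 (adjusted p = 0.911), were not called. The median log2 fold change over the 10 was 2.69, also with Cd3d set at its bound, against 0.015 over all genes.

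Those vehicle calls are sensitive to single libraries. After edgeR's usual filter on low counts 1 member, Cd4, remained among the 15801 genes tested, of which 20.2% were called (10.5% higher and 9.7% lower), and it was not (0.24 ± 1.06, adjusted p = 0.897), so 0 members were called there. Without the filter, leaving out each library in turn gave 3 to 7 called members. The count fell to 3 without vehicle peri-infarct replicate 3 or 4, or without vehicle contralateral replicate 2, 3 or 5, and to 4 without vehicle contralateral replicate 4. Cd8a, Cd8b1 and Cd3d were called in all 10 of these fits, Cd3e in 5, Cd2 in 4, Cd3g in 3, Nkg7 in 2 and Cd4 in 1. With animals as a block, in which the 2 regions of each mouse are paired, 5 members were called and Cd2 was not (adjusted p = 0.0592).

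In HPBCD-treated mice the same comparison of regions called 9 of the 10 members without the filter, where 33.1% of 28190 genes were called and 17% were called higher. Cd8b1 rose by 4.62 ± 0.69 (adjusted p = 3e-05), Cd3e by 4.19 ± 0.57 (adjusted p = 1.16e-05), Cd8a by 4.13 ± 0.60 (adjusted p = 2.27e-05), Nkg7 by 3.95 ± 0.80 (adjusted p = 0.000642), Gzmb by 3.605 ± 1.127 (adjusted p = 0.0179), Cd2 by 3.596 ± 0.614 (adjusted p = 0.000123) and Cd4 by 3.52 ± 0.28 (adjusted p = 2.17e-08). Cd3g was at least 27.8-fold higher (adjusted p = 1e-05) and Cd3d at least 10.5-fold higher (adjusted p = 0.0003), since their contralateral libraries were all at 0. The median log2 fold change over the 10 was 4.04, or 3.78 with those 2 genes at their bounds, against 0.015 over all genes. Gzma, with 1 count in these 10 libraries, was not called (adjusted p = 0.419).

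With the filter, 4 members were tested in HPBCD-treated mice and all 4 were called, against 54.6% of 16047 genes (30.3% higher): Cd3e rose by 4.27 ± 0.56 (adjusted p = 3.97e-05), Cd8a by 4.20 ± 0.59 (adjusted p = 6.17e-05), Cd2 by 3.67 ± 0.55 (adjusted p = 0.000112) and Cd4 by 3.596 ± 0.318 (adjusted p = 2.06e-06). Members that pass such a filter only through their peri-infarct libraries had to differ, so this count is no support. Every peri-infarct library lay above every contralateral library for 8 of the 10 members, against 24.7% of the genes that passed the filter. In vehicle-treated mice that held for 2 members, Cd3d and Cd8b1, against 6.35% of the genes that passed it, and for 0 members in the other direction, against 7.4%. These shares are over genes of higher counts, which include 4 members in HPBCD-treated and 1 in vehicle-treated mice. Leaving out each HPBCD library in turn gave 8 or 9 called members without the filter, and the animal block gave 8. Gzmb was the member lost, with an adjusted p of 0.0527 without HPBCD peri-infarct replicate 4 and of 0.0582 in the block.

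**Figure D2:**
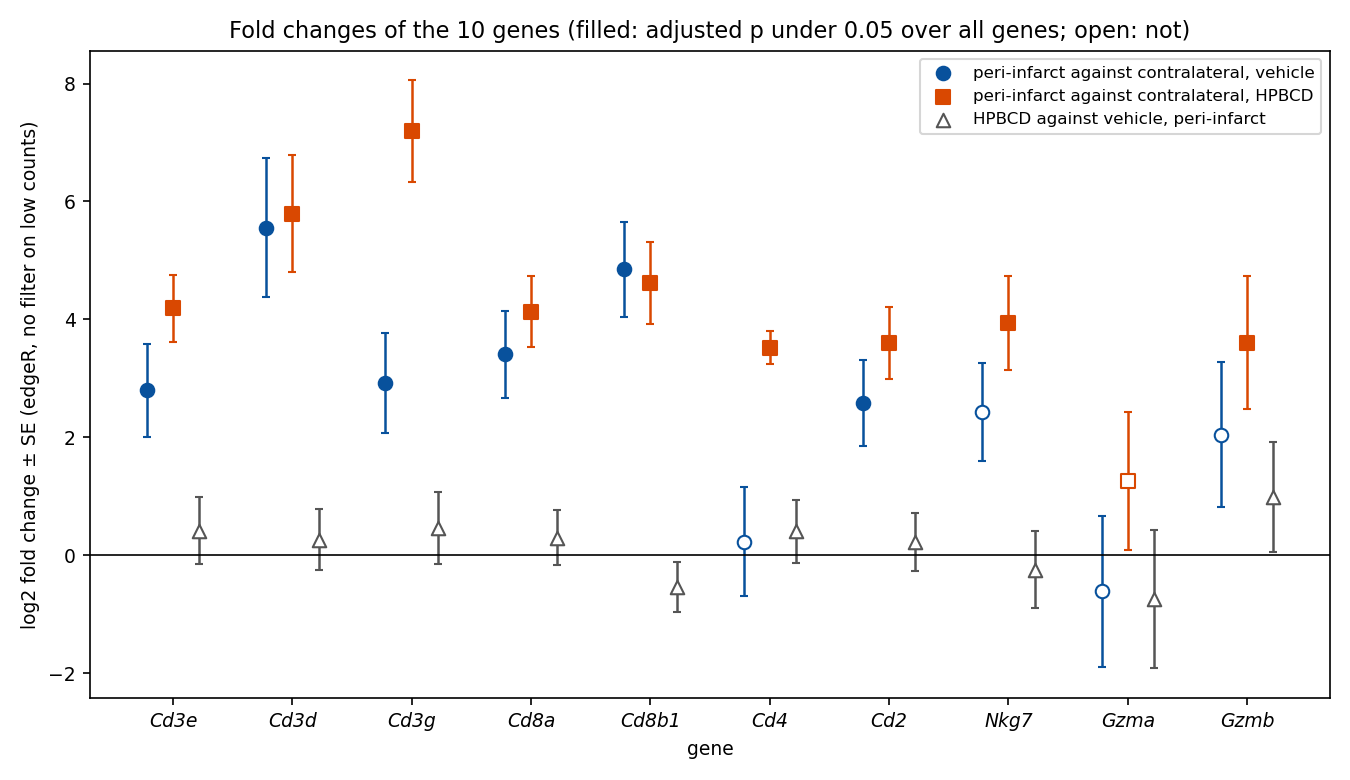
Log2 fold change ± SE (y axis) of the 10 genes (x axis) in 3 comparisons of 5 with 5 libraries, from edgeR without a filter on low counts. Filled symbols mark an adjusted p under 0.05 over all genes and open symbols the rest. The fitted values of Cd3d in both treatments and of Cd3g in HPBCD-treated mice are set against a group with no count and are not bounds. None of the differences between treatments is filled.

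The treatment comparison asks whether HPBCD changed these genes beside the infarct, and no member was called. Of the 16224 genes tested 21.4%, or 3471, were called (12.4% higher). That number depended on single libraries. It was 823 of 16354 without HPBCD peri-infarct replicate 3 and 5339 of 16428 without HPBCD peri-infarct replicate 2. Shares and calls of other genes in this comparison carry that limit. Among the members, 7 passed the filter. Their log2 differences in libraries labelled HPBCD against vehicle were 0.46 ± 0.64 for Cd3g (adjusted p = 0.621), 0.42 ± 0.62 for Cd3e (adjusted p = 0.639), 0.41 ± 0.61 for Cd4 (adjusted p = 0.646), 0.30 ± 0.49 for Cd8a (adjusted p = 0.675), 0.23 ± 0.51 for Cd2 (adjusted p = 0.766), -0.24 ± 0.68 for Nkg7 (adjusted p = 0.814) and -0.54 ± 0.43 for Cd8b1 (adjusted p = 0.375). Without the filter Cd3d was at 0.27 ± 0.52 (adjusted p = 0.769) and Gzmb at 0.99 ± 0.93 (adjusted p = 0.495), and 0 of the 10 members were called or had an unadjusted p under 0.05, against 9.78% of genes called (6.21% higher). DESeq2 and limma voom called 0 members as well. For every member the range of the vehicle peri-infarct libraries overlapped that of the HPBCD peri-infarct libraries. Of the genes that passed the filter, 7.58% did not overlap and were higher and 6.03% lower. The sign of Nkg7 and of Cd2 depended on single libraries: without vehicle peri-infarct replicate 4 Nkg7 was at 0.321, and without vehicle peri-infarct replicate 2 Cd2 was at -0.018.

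The vehicle peri-infarct libraries covered a wider range than the HPBCD peri-infarct libraries. Over the 9 members other than Cd4, vehicle peri-infarct libraries had 20 to 234 counts (5.8 ± 4.82 CPM) and HPBCD peri-infarct libraries 95 to 152 (6.59 ± 1.49 CPM; SD, n = 5 each). The highest and the lowest peri-infarct library were both from the vehicle group. The difference in spread was not tested.

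Contralateral levels were at or near the floor in both treatments. Over the 9 members other than Cd4 they summed to 0.638 ± 0.229 CPM in vehicle and 0.272 ± 0.156 CPM in HPBCD contralateral libraries (SD, n = 5 each), which is 58 counts against 22 over 5 libraries. No member was called between treatments contralaterally, where edgeR called 0 of 15469 genes with the filter (0% of them), 1224 had an unadjusted p under 0.05, DESeq2 called 56 and limma voom called 0. Without the filter, where 0.00725% of genes were called (0.00363% higher), 2 members had an unadjusted p under 0.05, Cd4 (adjusted p = 0.491) and Cd3g (adjusted p = 0.656), both lower in libraries labelled HPBCD. Without vehicle contralateral replicate 1 the difference in Cd4 went from -2.95 to -0.245 with the filter (adjusted p = 0.934). Cd3d was at 0 in all 10 of these libraries.

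The region by treatment interaction, which tests whether the difference between regions is itself different in HPBCD-treated mice, called 0 of the 7 members tested, against 9.41% of 16758 genes (5.03% higher and 4.38% lower), and 0 of the 10 without the filter, against 3.73% (1.96% higher). Cd4 came nearest (3.36 ± 1.29, adjusted p = 0.0958), and without vehicle contralateral replicate 1 its value was 0.65 (adjusted p = 0.661). Without vehicle peri-infarct replicate 3 the Cd4 interaction was called (4.095, adjusted p = 0.037), the only member called when libraries were left out in turn. Cd4 and Cd3g (adjusted p = 0.152) had an unadjusted p under 0.05, and no size is given for Cd3g, which had no count in HPBCD contralateral libraries. Nkg7 was at 1.55 ± 1.38 (adjusted p = 0.478), Cd3e at 1.44 ± 1.24 (adjusted p = 0.465), Cd2 at 1.06 ± 1.10 (adjusted p = 0.55) and Cd8a at 0.77 ± 1.21 (adjusted p = 0.712). Cd8b1 was below 0, at -0.18 ± 3.26 (adjusted p = 0.978). A member called in 1 treatment and not in the other is therefore not shown to differ between them.

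Cd4 had more counts than the other members, and in vehicle-treated mice its difference between regions turned on 1 library. In HPBCD-treated mice it was called higher peri-infarct, as most members were without the filter. Cd4, at chr6:124864692-124888221 on the minus strand, had 199, 166, 693, 333 and 28 counts in vehicle peri-infarct and 1003, 51, 35, 30 and 25 in vehicle contralateral libraries, 528, 160, 387, 479 and 500 in HPBCD peri-infarct and 35, 41, 23, 26 and 14 in HPBCD contralateral libraries. The highest count of all was in a contralateral library, vehicle replicate 1, where the CD3 genes had 6 counts together. In that library there were 167 Cd4 counts for each CD3 count, and in the peri-infarct libraries 1.56 to 27.7. Without vehicle contralateral replicate 1, Cd4 was at 1.93 ± 0.663 CPM in the 4 other vehicle contralateral libraries (SD), and its difference between regions in vehicle-treated mice went from 0.24 to 2.96 on the log2 scale and was called (adjusted p = 0.0212).

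The genes whose levels moved most like Cd4 include genes known from striatal neurons. After the mean of each group had been taken away, the genes with the highest correlation with log2 CPM of Cd4 over the 20 libraries, among 14798 genes of at least 1 CPM, included Gng7 (r = 0.97), Rasd2 (r = 0.969), Lrrc10b (r = 0.963), Ecel1 (r = 0.956) and Pde1b (r = 0.954). Gng7 encodes a G protein subunit of the dopamine pathway of medium spiny neurons and Pde1b a phosphodiesterase of the same cells. A list of 9 striatal genes was then set beside it (Drd1, Drd2, Adora2a, Penk, Ppp1r1b, Gpr6, Rgs9, Pde10a and Tac1), chosen after these values had been seen. Drd2, the dopamine D2 receptor, had 1310, 18, 2, 9 and 17 counts in vehicle contralateral and 369, 297, 770, 468 and 67 in vehicle peri-infarct libraries, 702, 220, 518, 755 and 726 in HPBCD peri-infarct and 14, 20, 4, 13 and 3 in HPBCD contralateral libraries. The library with the most Cd4 in each region was the library with the most Drd2.

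Over the 10 peri-infarct libraries, log2 CPM of Cd4 correlated with the summed striatal genes at r = 0.98 and rho = 0.94, and r was 0.94 without the 2 libraries farthest from the median. These values are given with no p, because the list was chosen for the likeness of Cd4 to striatal genes in the same libraries. Within vehicle and within HPBCD libraries r was 0.995 and 0.992. With the CD3 sum Cd4 correlated at r = 0.6 (permutation p = 0.067, also after adjustment over 3 relations) and at rho = 0.55 (permutation p = 0.1, adjusted 0.1). Without the 2 farthest libraries that r was 0.8, and within vehicle and HPBCD libraries it was 0.599 and -0.318. In HPBCD peri-infarct libraries Cd4 amounted to 1.26% to 1.49% of the counts of the 9 striatal genes, and in vehicle peri-infarct libraries to 0.477% to 2.24%. The summed striatal level ranged from 281 to 1750 CPM in vehicle peri-infarct, 181 to 3050 in vehicle contralateral, 641 to 1830 in HPBCD peri-infarct and 177 to 221 in HPBCD contralateral libraries. All 9 striatal genes were called higher peri-infarct in HPBCD-treated mice, against 30.3% of all genes, and 0 of them in vehicle-treated mice. There vehicle contralateral replicate 1 was at 3050 CPM and the other 4 contralateral libraries were at 181 to 250. The interaction called 0 of the 9. The part of these genes in the Cd4 result was not tested.

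**Figure D3:**
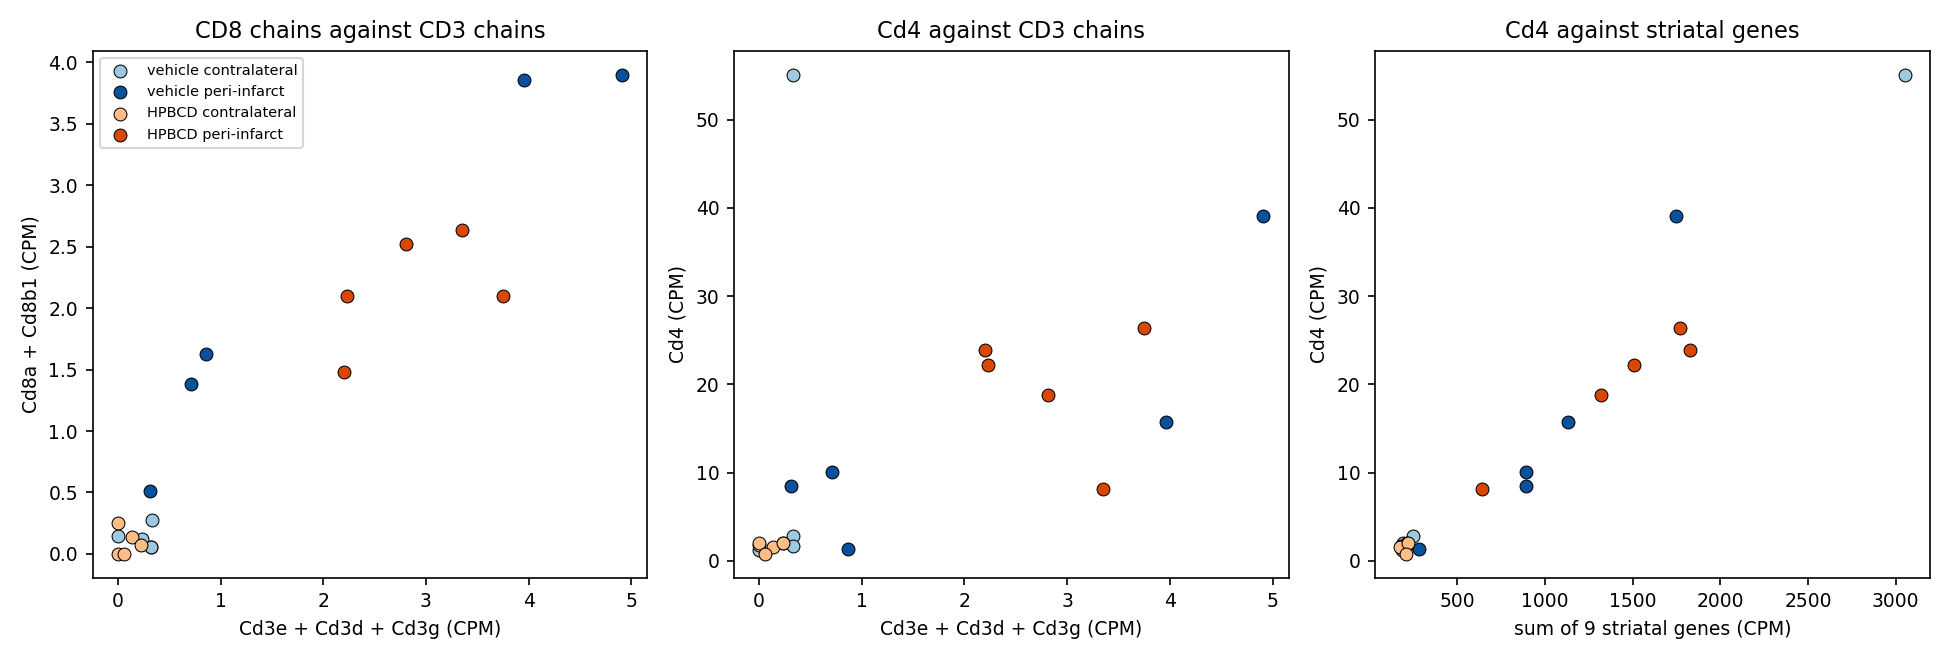
Each point is 1 of the 20 libraries, coloured by group, with linear axes in CPM: the CD8 chains against the CD3 chains, Cd4 against the CD3 chains, and Cd4 against the sum of 9 striatal genes. Vehicle contralateral replicate 1, at 55.1 CPM of Cd4, is far from the other libraries in the middle panel and lies at the upper end of the striatal panel.

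The CD3 genes correlated with the CD8 chains and with Cd2 over the 10 peri-infarct libraries, and less closely within the HPBCD libraries alone. Summed CD3 and CD8 levels correlated at r = 0.91 (permutation p = 8e-05, adjusted 0.00024) and rho = 0.92 (permutation p = 0.00043, adjusted 0.0013), and CD3 and Cd2 at r = 0.89 (permutation p = 0.00033, adjusted 0.00049) and rho = 0.88 (permutation p = 0.0016, adjusted 0.0024), over 10 libraries on the log2 CPM scale. Without the 2 farthest libraries, vehicle replicates 1 and 2, r was 0.76 and 0.62, and that of Cd4 with the CD3 sum was 0.8. Within vehicle libraries r was 0.972 for CD8 and 0.902 for Cd2, and within HPBCD libraries 0.573 and 0.677. The points share library and depth, and these relations were chosen after values had been seen.

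Outside the list, the genes most like the CD3 sum, after group means had been taken away over the 20 libraries, were Arl11 (r = 0.874), A2m (r = 0.828), Il13ra1 (r = 0.824), Tbxas1 (r = 0.813), Pctp (r = 0.801) and Trim5 (r = 0.8). Those most like the sum of Nkg7, Gzma and Gzmb were Ahnak2 (r = 0.882), Icam1 (r = 0.833), Gimap4 (r = 0.83), Tspan4 (r = 0.826), Tfcp2l1 (r = 0.809) and Zfp984 (r = 0.808). Gimap4 belongs to a GTPase family of lymphocytes and Icam1 encodes an adhesion molecule on which leukocytes leave the vessel.

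Per kilobase of exon, levels of different members can be set side by side. In HPBCD peri-infarct libraries Cd4 was highest, at 4.93 ± 1.77 CPM per kilobase, followed by Nkg7 (0.526 ± 0.273), Cd8b1 (0.523 ± 0.133), Cd2 (0.475 ± 0.148), Cd8a (0.383 ± 0.0768), Cd3e (0.37 ± 0.11), Cd3g (0.303 ± 0.0973), Cd3d (0.203 ± 0.0284), Gzmb (0.163 ± 0.13) and Gzma (0.00836 ± 0.0187; SD, n = 5). From Nkg7 down to Gzmb, neighbours in this order differed by less than the larger of their SDs, apart from Cd3g and Cd3d. In vehicle peri-infarct libraries Cd8b1, at 0.762 ± 0.499 CPM per kilobase, came before Nkg7, at 0.618 ± 0.603, and the other members kept the same order, with wide SDs.

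Beyond the 10, T cell receptor chains and the signalling proteins that sit behind CD3 were less uniform. Of 20 such genes, 9 were called higher and 2 lower in HPBCD-treated mice without the filter, and 2 higher and 0 lower in vehicle-treated mice. Over all genes 33.1% and 9.98% were called in these fits, so the vehicle count is at the background share. The median log2 fold changes were 1.72 (1.58 with genes that have a group at 0 at their bounds) and 1.35, against 0.015 over all genes. With the filter, Lcp2, the adaptor SLP-76, rose by 1.63 ± 0.26 in vehicle-treated mice (adjusted p = 0.00264) and by 2.18 ± 0.21 in HPBCD-treated mice (adjusted p = 3.76e-06), and Lck, the kinase that starts signalling from CD4 and CD8, rose by 1.95 ± 0.32 in HPBCD-treated mice (adjusted p = 0.000226). Lcp2 also had 41 to 60 counts in vehicle contralateral and 24 to 69 in HPBCD contralateral libraries, where the CD3 genes together had 0 to 6. Trac, the constant part of the receptor α chain, had 24 to 46 counts in HPBCD peri-infarct and 2 to 10 in HPBCD contralateral libraries and rose by 2.32 (adjusted p = 0.000126). In vehicle-treated mice it had 8, 6, 14, 40 and 12 counts peri-infarct and 12, 9, 6, 8 and 3 contralaterally, which overlap, and it was not called (0.90 ± 0.52, adjusted p = 0.328 without the filter). Trbc2, a constant part of the β chain, went the other way. It had 113 to 212 counts in HPBCD contralateral and 11 to 55 in HPBCD peri-infarct libraries, where it fell by 2.42 ± 0.34 (adjusted p = 6.2e-05). In vehicle-treated mice it had 108 to 216 counts contralaterally, where Cd3d was at 0 in every library, and 11 to 163 peri-infarct, and it was not called (-1.17 ± 0.44, adjusted p = 0.0785). Cd6, a co-receptor of T cells, likewise fell by 1.998 ± 0.259 (adjusted p = 3.53e-05) in HPBCD-treated mice, from 49 to 147 counts contralaterally to 17 to 47. Trbc1, the other constant part of the β chain, had 0 to 3 counts in contralateral libraries. The 2 genes are nearly identical, and reads that align to more than 1 place are not part of the counts used here. The effect of this on their levels was not tested.

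Of 21 genes of T cell state and homing, 10 were called higher and 0 lower in HPBCD-treated mice without the filter (median 2.30, or 1.85 with bounds), and 4 higher and 0 lower among 20 in vehicle-treated mice (median 0.62), where 17% and 5.47% of all genes were called higher. Pdcd1, which encodes the inhibitory receptor PD-1, had 9 to 47 counts in vehicle peri-infarct and 0 to 7 in vehicle contralateral libraries (3.35, adjusted p = 0.00331 without the filter), and 28 to 57 against 1 to 5 in HPBCD-treated mice (3.48 ± 0.45, adjusted p = 3.28e-05 with it). Cxcr6, a homing receptor of tissue-resident T cells, rose by 3.71 in vehicle-treated mice (adjusted p = 0.018 without the filter) and by 3.65 in HPBCD-treated mice (adjusted p = 0.000109). Lag3, a checkpoint receptor that microglia and neurons also express, rose by 1.59 ± 0.26 in vehicle-treated mice (adjusted p = 0.00293) and by 1.93 ± 0.21 in HPBCD-treated mice (adjusted p = 7.88e-06). Foxp3, the factor of regulatory T cells, had 0 to 8 counts in any library and was not called. Between treatments in peri-infarct tissue 9 genes of this list were tested and 2 were called, a share near the 21.4% of all genes called. Both were higher in libraries labelled HPBCD: Il7r, the receptor of a survival cytokine of T cells, by 2.01 ± 0.52 (adjusted p = 0.0255) and Tcf7, a factor of naive and memory T cells, by 0.75 ± 0.16 (adjusted p = 0.0164). Tcf7 did not follow the CD3 genes. It had 58 to 148 counts in vehicle contralateral and 72 to 101 in HPBCD contralateral libraries, where the CD3 genes together had 0 to 6. In vehicle-treated mice it did not rise peri-infarct (-0.02 ± 0.23, adjusted p = 0.961).

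Of 20 further cytotoxic and NK cell genes, 12 were called higher in HPBCD-treated mice and 3 in vehicle-treated mice without the filter, and 0 lower (medians 3.0 and 1.56, or 2.35 and 1.28 with bounds), against 17% and 5.47% of all genes called higher. Gzmk, a granzyme of memory CD8 T cells, had 5, 5, 8, 27 and 13 counts in vehicle peri-infarct and 4, 0, 2, 5 and 5 in vehicle contralateral libraries (adjusted p = 0.116), and 5, 11, 20, 10 and 19 against 0, 0, 0, 0 and 1 in HPBCD-treated mice (adjusted p = 7.65e-05). Prf1, the pore-forming perforin, had 0, 1, 8, 7 and 2 counts in vehicle peri-infarct and 2, 0, 1, 4 and 5 in HPBCD peri-infarct libraries and was called in neither treatment (adjusted p = 0.134 and 0.094). Ccl5, a chemokine released by these cells, was called in both (2.64, adjusted p = 0.0354, and 3.75, adjusted p = 6.96e-05). Ifng had 6 counts in the peri-infarct libraries of HPBCD-treated mice and 1 in those of vehicle-treated mice. Serpinb9, an inhibitor of granzyme B made by lymphocytes and by many other cells, was the 1 gene called of the 7 of this list tested between treatments in peri-infarct tissue, at 0.94 ± 0.21 in libraries labelled HPBCD (adjusted p = 0.0169), and 12.4% of all genes were called higher there.

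A further list held MHC class I and class II chains, genes that load peptide on them or control them (Tap1, Tap2, Psmb8, Psmb9, Cd74 and Ciita), and Cd48, Cd80 and Cd86, the ligands of CD2 and CD28. Of its 15 genes, 9 of the 14 tested were called higher in vehicle-treated mice, against 10.5% of all genes, and 15 of 15 in HPBCD-treated mice, against 30.3%, and 0 lower (median log2 fold changes 1.33 and 2.25, against 0.015 and 0.032 over all genes). Their summed level was 193 to 328 CPM in vehicle contralateral, 333 to 1010 in vehicle peri-infarct, 196 to 266 in HPBCD contralateral and 632 to 1460 in HPBCD peri-infarct libraries. Cd48, the ligand of CD2 in mice, rose by 3.01 ± 0.43 in vehicle-treated mice (adjusted p = 0.00215) and by 3.77 ± 0.39 in HPBCD-treated mice (adjusted p = 6.23e-06). Cd74, the invariant chain of MHC class II, rose by 1.71 ± 0.53 (adjusted p = 0.0404) and 3.46 ± 0.41 (adjusted p = 1.71e-05), and H2-Ab1, a class II chain, by 1.76 ± 0.53 (adjusted p = 0.0374) and 3.44 ± 0.37 (adjusted p = 7.39e-06). In peri-infarct tissue 7 of the 15 were higher in libraries labelled HPBCD, against 12.4% of all genes, among them Cd80, a ligand of CD28, at 1.95 ± 0.51 (adjusted p = 0.0262), H2-Aa at 1.55 ± 0.40 (adjusted p = 0.025) and H2-Eb1 at 1.45 ± 0.43 (adjusted p = 0.0367). The number of all genes called in this comparison depended on single libraries, as given above. Psmb9, a subunit of the immunoproteasome, was the only one called in the interaction, at 1.42 ± 0.37 (adjusted p = 0.0269). It shares 212 exonic bases with Tap1 on the other strand, and Lcp2, Cxcl16, Cxcl10, Icam1, Vcam1, Cd52 and Coro1a also overlap a gene on the opposite strand.

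Of 9 chemokines and adhesion molecules that attract or hold T cells, 5 were called higher in vehicle-treated mice and 7 in HPBCD-treated mice without the filter, and 0 lower (medians 1.79 and 3.03), against 5.47% and 17% of all genes called higher. Cxcl10, a ligand of CXCR3, rose by 5.199 ± 0.662 in HPBCD-treated mice (adjusted p = 3.03e-05) and by 2.60 in vehicle-treated mice (adjusted p = 0.0247 without the filter). Cxcl16, the ligand of CXCR6, rose by 2.55 ± 0.42 in vehicle-treated mice (adjusted p = 0.00307) and by 3.64 ± 0.42 in HPBCD-treated mice (adjusted p = 1.52e-05). Icam1 rose by 1.80 ± 0.36 (adjusted p = 0.00692) and 3.11 ± 0.27 (adjusted p = 1.68e-06), and Vcam1 rose by 0.91 ± 0.18 in vehicle-treated mice (adjusted p = 0.00726). Of 6 genes of this list tested between treatments in peri-infarct tissue, where 12.4% of all genes were called higher, Cxcl16, Icam1 and Vcam1 were higher in libraries labelled HPBCD, by 1.31 ± 0.41 (adjusted p = 0.0425), 1.07 ± 0.35 (adjusted p = 0.0479) and 0.62 ± 0.20 (adjusted p = 0.0444). These values lie close to the threshold of 0.05, in a comparison whose number of calls depended on single libraries.

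**Figure D4:**
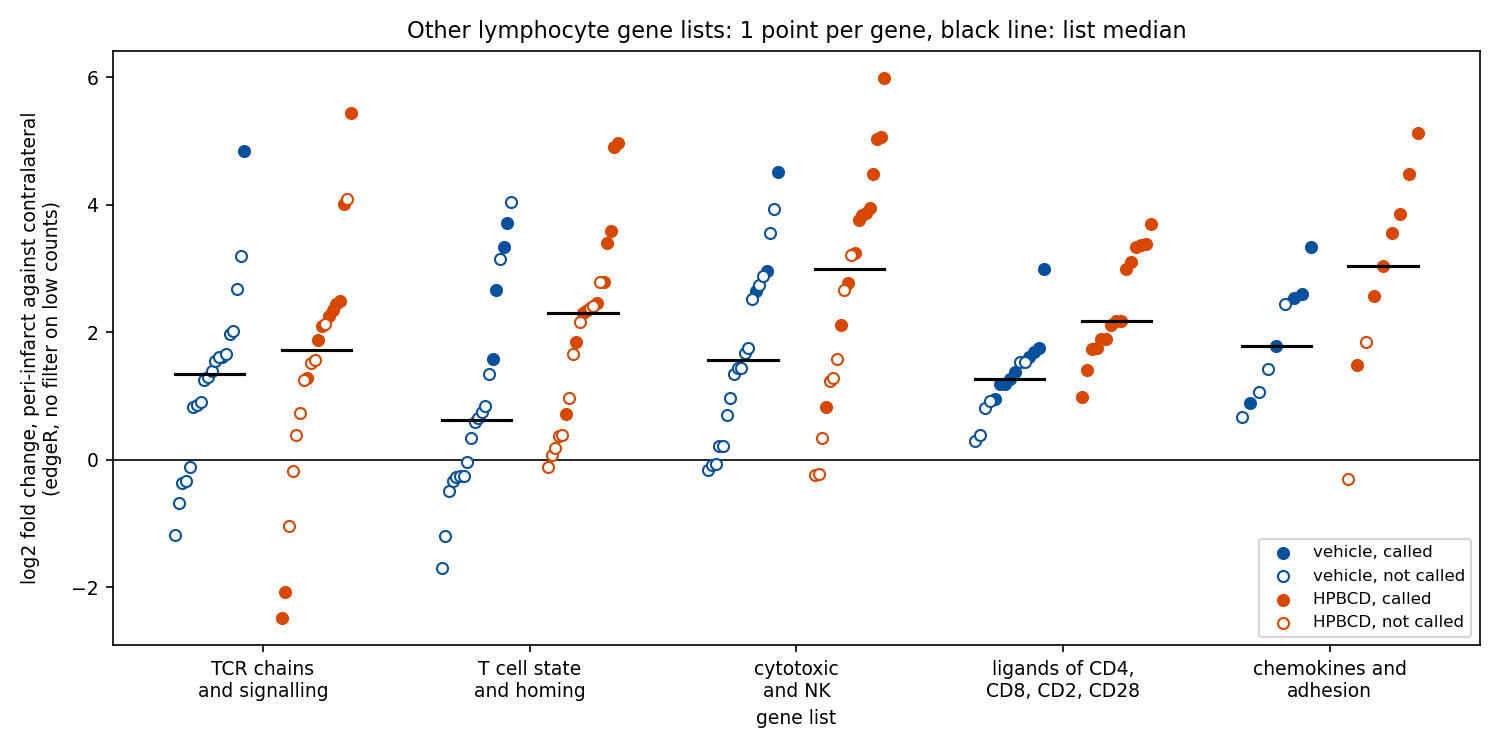
Log2 fold change of peri-infarct against contralateral tissue (y axis, edgeR without a filter on low counts) for the genes of 5 other lists (x axis), with 1 point per gene, blue for vehicle-treated and orange for HPBCD-treated mice, filled where the adjusted p over all genes is under 0.05. Black lines mark list medians, from 0.62 to 1.79 in vehicle and 1.72 to 3.03 in HPBCD-treated mice, and the 2 filled points below 0 are Trbc2 and Cd6. Values against a group with no count are fitted and are not bounds.

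Many markers of other cells were also higher peri-infarct. Counts called are from the fit with the filter unless stated. In that fit 10.5% of all genes were called higher in vehicle-treated and 30.3% in HPBCD-treated mice. Of 9 genes common to leukocytes, 8 were called higher peri-infarct in each treatment, led by Cd52 (2.41 ± 0.39, adjusted p = 0.00292, in vehicle and 3.21 ± 0.35, adjusted p = 9.83e-06, in HPBCD-treated mice) and Ptprc, which encodes CD45 (2.17 ± 0.36, adjusted p = 0.00331, and 3.05 ± 0.25, adjusted p = 1.29e-06). Coro1a, which neurons also express, was lower by 0.36 in HPBCD-treated mice (adjusted p = 0.00288). All 8 microglia markers were called higher in both treatments and 0 of 8 between treatments in peri-infarct tissue. Their summed levels were 278 to 319 CPM in vehicle contralateral, 443 to 1040 in vehicle peri-infarct, 258 to 316 in HPBCD contralateral and 680 to 1160 in HPBCD peri-infarct libraries. Of 9 B cell markers, 3 were tested in vehicle-treated and 6 in HPBCD-treated mice and all of these were called higher, which for genes that pass only through their peri-infarct libraries is no support. Without the filter 2 and 8 of the 9 were called higher. Their sums were 7.93 to 11.5, 12.9 to 22.4, 7.16 to 9.17 and 23.1 to 34.8 CPM in the same order of groups. Of 9 macrophage markers, 3 and 8 were called higher. The 3 in vehicle-treated mice were Ms4a7, Cd68 and Cd14. There Mrc1 (-0.008), Cd163 (-0.04), F13a1 (-0.207), Cbr2 (-0.62) and Lyve1 (0.6) were not called, and without the filter the list median was -0.02. Sums of the 9 were 14.2 to 31.0, 30.9 to 121, 13.5 to 30.2 and 94.6 to 206 CPM. Most of each peri-infarct sum was Cd68, with 371 to 1640 counts in vehicle and 1132 to 2548 in HPBCD peri-infarct libraries.

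Of 8 dendritic cell markers 5 were tested, and 1 was called higher and 1 lower in each treatment. Without the filter 4 were higher and 1 lower in HPBCD-treated mice and 1 higher and 1 lower in vehicle-treated mice. Xcr1, which marks the dendritic cells that carry CD8α, had 7, 3, 20, 20 and 10 counts in HPBCD peri-infarct and 0, 0, 1, 0 and 0 in HPBCD contralateral libraries (4.95 ± 0.92, adjusted p = 0.000282), and 2, 1, 0, 5 and 2 against 0, 0, 0, 1 and 1 in vehicle-treated mice (adjusted p = 0.297). Clec9a, a receptor of the same cells, had 21, 8, 12, 15 and 18 counts in HPBCD peri-infarct and 4, 0, 1, 0 and 4 in HPBCD contralateral libraries (2.62 ± 0.62, adjusted p = 0.00238), and 2, 2, 4, 7 and 4 against 0, 4, 6, 8 and 5 in vehicle-treated mice (adjusted p = 0.738). Between treatments in peri-infarct tissue and without the filter, Xcr1 (2.48 ± 0.69, adjusted p = 0.0347), Clec9a (1.85 ± 0.43, adjusted p = 0.018) and Ccr9 (1.86 ± 0.48, adjusted p = 0.0269) were higher in libraries labelled HPBCD and 1 gene of the list, Zbtb46, was lower. Summed dendritic cell levels were 19.9 to 26.2 CPM in vehicle contralateral, 22.0 to 62.5 in vehicle peri-infarct, 20.3 to 23.3 in HPBCD contralateral and 33.0 to 61.7 in HPBCD peri-infarct libraries. Most of the change in these sums was Itgax, an integrin that activated microglia and macrophages also carry, at 0 to 1.04 CPM in vehicle contralateral, 2.31 to 43.0 in vehicle peri-infarct, 0.225 to 0.758 in HPBCD contralateral and 19.4 to 42.6 in HPBCD peri-infarct libraries. It was called higher in vehicle-treated mice (4.95 ± 0.81, adjusted p = 0.00297) and in HPBCD-treated mice (5.81 ± 0.33, adjusted p = 1.9e-07). Flt3, the receptor that dendritic cells need to develop, fell by 1.11 ± 0.14 (adjusted p = 0.00146) and fell by 1.52 ± 0.20 (adjusted p = 4.41e-05). Most of the contralateral sums was Zbtb46 and Flt3, with 177 to 293 and 118 to 147 counts in vehicle contralateral libraries. Xcr1 and Clec9a had 0 to 8 counts in contralateral libraries, so the sums and Flt3 do not measure dendritic cells alone. The part of dendritic cells in the level of Cd8a was not tested.

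Of 7 neutrophil markers, 2 were tested in HPBCD-treated mice and both were called higher, S100a9 by 3.004 ± 0.793 (adjusted p = 0.0062) and S100a8 by 2.40 ± 0.85 (adjusted p = 0.0299). For genes that pass the filter mainly through their peri-infarct libraries this count is no support. Without the filter 5 of 6 were called higher, against 17% of all genes. In vehicle-treated mice 0 of 7 were called without the filter and none passed it. S100a9 was also higher in peri-infarct libraries labelled HPBCD than in those labelled vehicle (2.52 ± 0.81, adjusted p = 0.0475). It was the 1 gene called of the 2 of this list tested there, where 12.4% of all genes were called higher. Summed neutrophil levels were 0.275 to 9.66 CPM in vehicle contralateral, 0.204 to 5.42 in vehicle peri-infarct, 0.282 to 3.23 in HPBCD contralateral and 1.85 to 32.1 in HPBCD peri-infarct libraries, while Ly6g, a surface marker of neutrophils, had 1 count in the 20 libraries.

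Between treatments in peri-infarct tissue, where no member was called and 12.4% of all genes were called higher, genes of other lists were called. Fibroblast and meningeal markers were called higher in libraries labelled HPBCD for 7 of 8 genes (143 to 376 CPM in vehicle and 445 to 1160 CPM in HPBCD peri-infarct libraries), blood markers for 3 of the 3 tested of 5 (5.46 to 10.8 and 9.13 to 80.1 CPM), macrophage markers for 5 of 9, B cell markers for 3 of 6 tested, reactive astrocyte markers for 4 of 8 and choroid plexus markers for 3 of 6. Neuronal markers were lower for 5 of 8, against 9% of all genes. They were also lower peri-infarct for 5 of 8 genes in vehicle-treated mice, against 9.7% of all genes, and for 8 of 8 in HPBCD-treated mice, against 24.3%, while all 8 reactive astrocyte markers were higher in both. The part of these cell types in the levels of the members was not tested.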

How the data were processed

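RNA was measured in 20 libraries, 5 in each of 4 groups named by their titles. The authors trimmed reads of stranded mRNA libraries with Trimmomatic 0.32, aligned them to GRCm38 with STAR 2.5.2b and used htseq-count, and the deposited values are raw counts. Its strand option and annotation release are not given in the sources used here. Symbols and coordinates come from GENCODE M21, which held 98.16% of the genes. The 5 lines per library that name no gene were not used (4.39% to 9.5% of read pairs without a feature, 3.94% to 8.03% ambiguous, 16.58% to 24.3% not unique). No 2 tables were identical.

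Groups were compared with edgeR 4.0.16 (R 4.3.3): quasi-likelihood test, TMM, filterByExpr and Benjamini-Hochberg adjustment over all genes tested, at 0.05. Each comparison used its 10 libraries and the interaction all 20. As most members failed the filter, the fit over all genes with at least 1 count is given for each. SE is the log2 fold change over the root of F. The code was first tested on simulated data. Levels are mean ± SD of TMM-scaled CPM. Correlations used log2 CPM (prior count 2) with two-sided permutation tests (100000 draws). Bounds take 3 counts over a group as the floor, and promoter windows hold 250 bases.

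Named were all members and, per list of lymphocyte genes and comparison, up to 3 genes called higher and 3 lower with a mean of at least 1 CPM, by size. Trac, Trbc1, Xcr1, Clec9a, Ccr9, Zbtb46, Itgax, Cd79a, the neutrophil and macrophage genes, Cxcr6, Foxp3, Gzmk, Prf1, Ifng, Ccl5, the values of Pdcd1, Cxcl10 and Tcf7 in vehicle-treated mice and the striatal genes were chosen after values had been seen, and members and lists with earlier results of these data known. Some genes are not reported here.

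In both treatments, libraries of the 2 regions with 1 number carry the same identifier in their names (10 of 10 pairs), read here as the mouse. Their deviations from group means had an average r of 0.088, and 4 pairs exceeded 0.1. P-values measure the spread between these libraries. Alternatives were DESeq2 1.42.0, limma 3.58.1 (voom), RLE factors, no filter, at least 10 counts in every library, thinned counts, a block for replicate number, 1 fit of all 4 groups, and leaving out each library. After values had been seen, the fit without a filter was combined with the block, RLE factors, DESeq2 and each library left out.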

Additional observations from a re-analysis of the deposited data

Results flagged for a closer look

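Cd4 in vehicle contralateral replicate 1 lay far above the rest of its group, at 55.1 CPM (1003 counts) where the other 4 libraries had 25 to 51 counts, a gap of 0.971 of the range of the group. The same library had the highest summed level of the 9 striatal genes of all 20 libraries, 3050 CPM. The sum of the CD3 genes in vehicle contralateral replicate 5 was 0.0 CPM, with 0 counts, where the other 4 libraries had 4 to 6, a gap of 0.719 of the range. In all, 26 groups of 5 values were examined in this way, and chance flags about 1 in 20. Among the genes listed for T cells, cytotoxic cells, their ligands and leukocytes in general, the effect of region differed between treatments by the test of the interaction for Psmb9, at 1.42 on the log2 scale (adjusted p = 0.0269). Among markers of other cells the interaction also called 4 of 8 fibroblast and meningeal, 3 of 8 reactive astrocyte, 1 of 9 macrophage and 1 of 6 tested B cell genes as higher (the last Cd79a, at 3.54, adjusted p = 0.0198) and 3 of 8 neuronal genes as lower.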

How the results depend on the processing

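Counts of called members depended mainly on the filter. In vehicle-treated mice 0 members were called between regions with the filter, 6 without it and 6 with all 4 groups in 1 fit, and leaving out each library gave 0 to 3 with the filter and 3 to 7 without it. In HPBCD-treated mice 4 were called with the filter, 9 without it, 1 with at least 10 counts in every library and 7 with all 4 groups in 1 fit, and leaving out each library gave 4 to 6 with the filter and 8 to 9 without it. These settings change how many members are tested. Without the filter, RLE factors and DESeq2 each called 6 members in vehicle-treated and 9 in HPBCD-treated mice, but in vehicle-treated mice DESeq2 gave no adjusted p for Cd3d and called Nkg7 (2.506, adjusted p = 0.0395), which edgeR called with all 4 groups in 1 fit (2.457, adjusted p = 0.0271). The replicate block with the filter called 0 members in vehicle-treated and 4 in HPBCD-treated mice, and without it 5 and 8, with Cd2 and Gzmb lost, and it changed no other member's call. Between treatments, 0 members were called under every alternative run, in either region, and the interaction ranged from 0 to 1 when libraries were left out, with Cd4 called without vehicle peri-infarct replicate 3. Across treatments a replicate number marked no shared origin: r averaged 0.05, 3 of 10 pairs were over 0.1 and 1 of 10 libraries matched its own number best. That block called 4375 genes between treatments in peri-infarct tissue, against 3471 without it. Leaving out each library gave 823 to 5339 genes in that comparison. In the interaction it gave 529 to 3121 genes, against 1577 with all libraries.

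Signs changed in these cases when libraries were left out in turn. The difference of Cd4 between regions in vehicle-treated mice ranged from -0.49 to 2.957, with values below 0 without vehicle peri-infarct replicate 3 or vehicle contralateral replicates 2 to 5, and Gzma reached 2.021 without vehicle contralateral replicate 3 and the filter. Between treatments in peri-infarct tissue Nkg7 ranged from -0.525 to 0.321, and was at 0.021 with limma voom and 0.009 with the replicate block, and Cd2 ranged from -0.018 to 0.843. In the interaction Cd8a ranged from -0.017 to 2.552 and Cd8b1 from -2.737 to 0.384. The cause was not tested. Of the other fold changes of members under alternatives, 587 kept their direction and their side of the threshold, 21 lost a call and 6 gained 1. For the genes of other lists named by size, 675 fold changes over all comparisons and alternatives kept both and 64 lost a call. At a depth at which 3 counts are 0.135 to 0.208 CPM, levels of Gzma and Gzmb and all contralateral levels other than that of Cd4 are limited by counting.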
